A study of Sus scrofa with 31 samples.

Results

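Microglia of 3 brain regions were compared with alveolar macrophages of the pig, a comparison of a resident brain macrophage with an exemplar macrophage from outside the brain. The libraries were chosen by the tissue and cell type in their labels. They number 27 of the 31 RNA-seq libraries of the study, 8 each of microglia from the cerebellum, the frontal cortex and the hippocampus, and 3 of alveolar macrophages; the other 4, of whole hippocampal tissue, entered neither the filter nor the fit. All samples came from male piglets in the fourth week of life, 1 from each litter, which had been sedated and kept under anaesthesia. They had been born into either of 2 kinds of housing, and which pig came from which is not in the labels. Microglia were sorted from dissociated brain as cells with high CD11b and low or absent CD45, and macrophages from lung lavage as F4/80+ cells with low or absent CD163. By the numbers in the labels, taken to mark the animal, 15 pigs gave the 27 libraries. Of these, 14 gave microglia, 7 of them from more than 1 region, and 2 pigs gave both cell types, so libraries of 1 pig are not independent of each other. For its whole series the paper counts more pigs, and more with several brain regions, than these numbers give. This difference could not be resolved, and results with the pig as a block rest on the numbers. Sorted populations of bulk RNA were measured, in which fewer cells of a type and less RNA per cell cannot be told apart.

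Both cell types are long-lived tissue macrophages that depend on signals of their organ. Microglia settle in the brain early in development, survive on signals through the receptor CSF1R and keep a homeostatic program under TGF-beta, with the transcription factor SALL1 and surface genes such as P2RY12 and TMEM119 as its hallmarks. Alveolar macrophages form after birth under GM-CSF and TGF-beta, depend on the nuclear receptor PPARG, and clear surfactant lipids, particles and microbes from the air spaces.

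Between 18438494 and 43477403 counts fell on genes in each library, with a median of 26379812 in microglia and 41470580 in macrophages. Expression is given as CPM (counts scaled to a common library total) after TMM scaling, and 3 counts in a library, taken as the floor of detection, corresponded to 0.0644 to 0.154 CPM, which covers counting error only. Of 31907 genes, the 9379 with over 10 CPM in all libraries of at least 1 of the 4 groups were tested. Log2 fold changes are given with their standard error (SE) as microglia minus macrophages, where the microglia value is the mean of the 3 regions. A gene was called when its adjusted p was under 0.01 and its fold change over 3. No label gives separate cultures or sorting days, and p-values compare the spread between these libraries.

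The labels were first set against marker genes. The microglia libraries were rich in the microglial genes described below. In the macrophage sorts, ADGRE1, the gene of F4/80, was present at 62.9, 75.1 and 143 CPM and the mannose receptor MRC1 at 212, 229 and 344 CPM. Of the defining genes of alveolar macrophages, however, the fatty acid binding protein FABP4 and the scavenger receptor MARCO were listed at 0 in all 3 sorts, and neither was over 0.481 CPM in any of the 27 libraries. The sorts also held transcripts of genes used as markers of other lung and blood cells. The markers of T cells, of which 23 were in the table, summed to 2172, 2850.2 and 1598 CPM in the 3 sorts and to between 30.3 and 107 CPM in microglia. Those of B and plasma cells (17 markers) summed to 4531, 1570.0 and 1438 CPM against at most 379.6 CPM, and those of neutrophils (13 markers) to 539.7, 745 and 1118 CPM against at most 46.5 CPM. The sums for natural killer cells (15 markers) and monocytes (13 markers) were also above every microglia library, and that of lung epithelium (16 markers) was 183, 242 and 119.8 CPM against 41 to 205 CPM. S100A12 and CSF3R made up a large part of the neutrophil sum and ITGA4 a large part of the monocyte sum (values below). The neutrophil marker MPO was at 0 in all 3 sorts. Whether neutrophils or monocytes were present was not tested. Values are in the order of pigs 12821, 12829 and 12984, here and throughout. The libraries are called macrophage sorts here, and what share of each difference any such other cells carried was not tested. Of the 70 tested members of the 7 marker lists of lung and blood cells, 57 were called lower in microglia, beside 11.2% of all genes tested. A member that passed the filter only through the sorts could hardly be called otherwise. This share therefore does not test which cells were present.

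**Figure D1:**
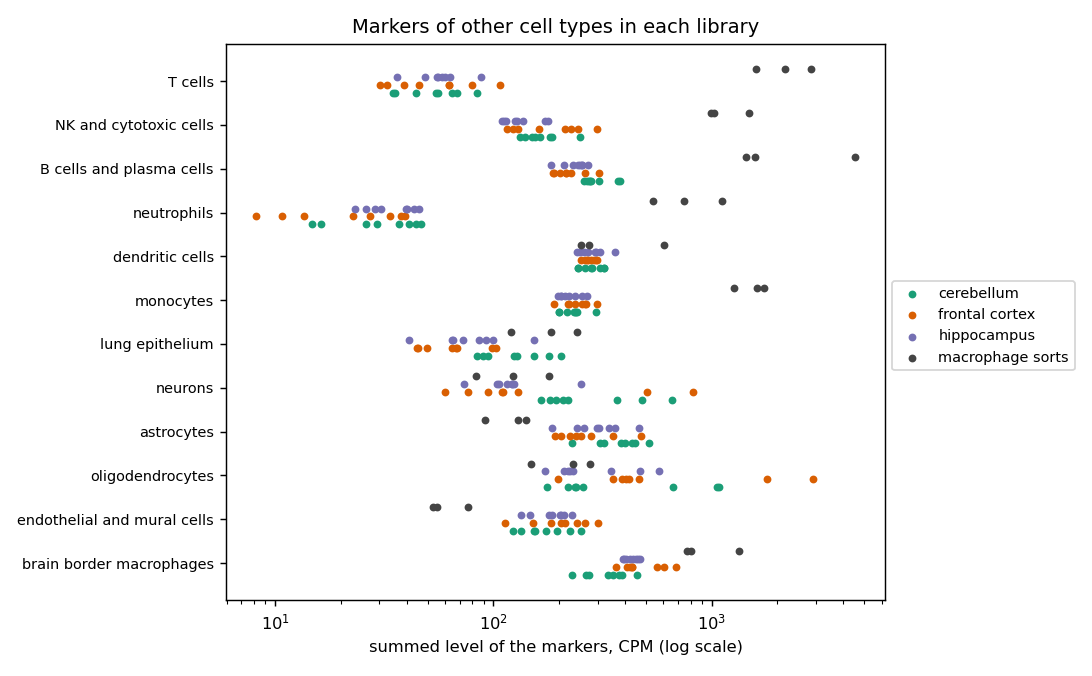
Summed level of the markers of 12 cell types in each library, in CPM on a log scale, with 1 point per library and colours for the 3 microglia regions (n = 8 each) and the macrophage sorts (n = 3). The macrophage sorts lie above every microglia library for T cells, B and plasma cells, natural killer cells, neutrophils and monocytes, and 1 frontal cortex library reached 2906 CPM of oligodendrocyte markers.

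In microglia, the frontal cortex library of pig 12599 had the highest oligodendrocyte sum, 2906 CPM against a median of 349 CPM, and the highest neuron sum, 822 CPM against 127 CPM. The next highest oligodendrocyte sums were 1799 CPM in the frontal cortex library of pig 12891, 1075 CPM in the cerebellar library of pig 12583 and 1060 CPM in that of pig 12599, and the next highest neuron sums were 655 CPM in the cerebellar library of pig 12902 and 506 CPM in the frontal cortex library of pig 12891. The sums for astrocytes (9 markers; 129.6, 91.9 and 140.3 CPM in the sorts, 185 to 515 CPM in microglia) and for vessels (13 markers; 53.1, 55.3 and 76.7 CPM and 112 to 302 CPM) were above every sort in all 24 microglia libraries. Most of the astrocyte sum in microglia came from SLC1A3 (values below). The other tested astrocyte marker, SLC1A2, was called lower in microglia. The part of brain cells other than microglia in the differences was not tested. Without the frontal cortex library of pig 12599 alone, 1070 genes were called higher and 1068 lower, close to the counts from all libraries. Of the 10 tested members of the 4 marker lists of neurons, astrocytes, oligodendrocytes and vessels, 5 were called higher, beside 11.4% of all genes tested. From the neuron, astrocyte and vessel lists, 1 member each was called lower, beside 11.2% of all genes tested. The filter left out 18 of 20 neuron, 7 of 9 astrocyte, 10 of 14 oligodendrocyte and 11 of 13 vessel markers in the table. Among those called higher, OPALIN, of myelin, had microglia values from 3.49 to 593 CPM. It lost its call with the pig as a block (adjusted p = 0.03, edgeR). Without the sort of pig 12821 its adjusted p was 0.023, and without that of pig 12829 it was 0.025.

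A total of 1068 genes (11.4% of those tested) were higher in microglia and 1055 (11.2%) were lower (edgeR quasi-likelihood test, Benjamini-Hochberg adjusted p under 0.01, over 3-fold). The median log2 fold change was 2.84 among the former and -3.51 among the latter, beside -0.01 over all genes tested. Differences over 10-fold were found for 423 of the genes called higher and 557 of those called lower. At most 3 counts in every library of the other cell type were present for 24 and 14 of them. In 994 of the 1068 genes every microglia library lay above every macrophage sort, and in 996 of the 1055 every one lay below. The same non-overlap was found for 17.2% and 19.9% of all genes tested, respectively. Set against the macrophage sorts 1 region at a time, microglia of the cerebellum had 1090 genes higher (11.6%) and 958 lower (10.2%), those of the frontal cortex 1069 (11.4%) and 963 (10.3%), and those of the hippocampus 1079 (11.5%) and 1059 (11.3%). The 3 regions shared 951 genes higher (10.1% of genes tested) and 810 lower (8.64%), and no gene was called in opposite directions in 2 regions (edgeR). The macrophage sorts are the same 3 in each of these regional comparisons. With the pig as a block, which leaves the contrast to the 2 pigs with both cell types, 1062 genes were higher and 742 lower, and 943 and 468 in each region.

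**Figure D2:**
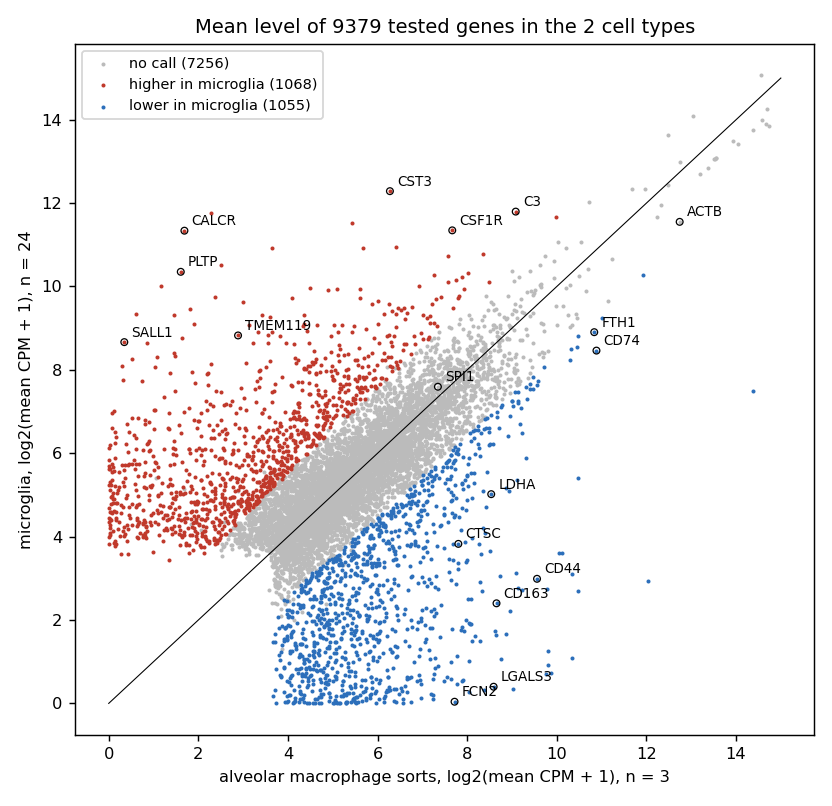
Mean level of the 9379 tested genes in the macrophage sorts (horizontal axis, n = 3) and in microglia (vertical axis, n = 24), both as log2(mean CPM + 1), with 1 point per gene and the line of equal level. The 1068 genes called higher in microglia lie above the line and the 1055 called lower below it, with named examples ringed.

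Of the 10 most abundant genes with a symbol, 4 were among the top 10 of both cell types, namely ACTB (cytoplasmic actin), the chaperone HSP90AA1 and the RNA genes RNase_MRP and RNaseP_nuc. Of the 20 most abundant genes, 2 had a symbol in each cell type. Among the most abundant named genes in microglia were CST3, which encodes the protease inhibitor cystatin C, with a median of 4867 CPM, the complement component C3 with 3334 CPM, the cytoskeletal linker DST with 3003 CPM, the calcitonin receptor CALCR with 2595 CPM and CSF1R with 2569 CPM. CST3 had 57.7, 64 and 108 CPM in the macrophage sorts and 3036 to 8511 CPM in microglia, a log2 fold change of 6.02 ± 0.32 (adjusted p = 2.8e-15, edgeR). DST had 62.9, 18.3 and 45.6 CPM in the sorts and 1944 to 3764 CPM in microglia, again with no overlap. In the macrophage sorts, ACTB, the invariant chain CD74 and ferritin heavy chain FTH1 were among the most abundant, with 6607, 8347 and 5595, 1585, 1879.9 and 2206 and 1148, 1635 and 2696 CPM, and ACTB had a median of 3029 CPM in microglia. HSP90AA1 was not called, with 1329, 1657 and 1497 CPM in the sorts and 1333 to 2711 CPM in microglia.

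The sort genes were read as a check and not as a finding. ITGAM, the gene of CD11b, had 120.1, 141 and 182 CPM in the macrophage sorts and 610.2 to 952 CPM in microglia. PTPRC, the gene of CD45, had 1317, 1308 and 1595 CPM in the sorts and 434 to 844 CPM in microglia, where every library was below every sort. ADGRE1 was at 0 in all 24 microglia libraries, so that it was at least 824-fold lower against the floor of 3 counts in each library. CD163 was at 334, 295 and 577 CPM in the macrophage sorts, although the gate took cells with low or absent CD163 protein, and at most 23.5 CPM in microglia. Counts of the lists below still include sort genes. ITGAM is in the homeostatic, complement, adhesion and synapse lists, and ADGRE1 in the alveolar macrophage and adhesion lists. CD163 is in the alveolar macrophage, scavenger, iron and border macrophage lists.

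Genes of the homeostatic microglial program were higher in microglia as a group. Of 36 such genes in the table, 33 were tested, and 24 were called higher and 1 lower, with a median log2 fold change of 2.71. Of all genes tested, 11.4% were higher and 11.2% lower, with a median of -0.01, and the lists below are to be read against these values. A member that passed the filter only through 1 cell type could hardly be called lower there. Such members bear little on the direction of a list. P2RY12, the ADP receptor that steers microglial processes to sites of damage, had 3.69, 1.2 and 3.24 CPM in the macrophage sorts and 220.2 to 1013 CPM in microglia (median, 466). Its log2 fold change was 7.61 ± 0.47 (adjusted p = 9.6e-14, edgeR). TMEM119, a transmembrane protein used as a microglial marker, had 5.88, 5.44 and 7.86 CPM in the sorts and 302 to 556 CPM in microglia (6.14 ± 0.24). CX3CR1, the receptor of the neuronal chemokine fractalkine, had 4.46, 14.7 and 1.8 CPM and 536 to 1171 CPM (6.81 ± 0.49). For each of these 3 genes the lowest microglia library was more than 10-fold above the highest macrophage sort. TREM2, a receptor for lipids and lipoproteins, was at 0.493, 4.5 and 1.33 CPM in the sorts and 249 to 742 CPM in microglia (7.69 ± 0.51), while its signalling adaptor TYROBP overlapped between the cell types, with 52.9, 91.3 and 139 CPM in the sorts, 72.7 to 185 CPM in microglia and a log2 fold change of 0.46 ± 0.26 (adjusted p = 0.12). CSF1R was high in both, at 110.3, 257 and 239 CPM in the sorts and 1355 to 4527 CPM in microglia (3.69 ± 0.31). The blood coagulation cofactor PROS1, a bridge to TAM phagocytic receptors, and the receptor GPR34 were also called higher, by 5.92 ± 0.56 and 2.95 ± 0.25 on the log2 scale. LAPTM5, a lysosomal membrane protein of haematopoietic cells, was not called (0.39 ± 0.17, adjusted p = 0.053). The exception was PLXDC2, a transmembrane receptor, with 33.9, 30.3 and 49.1 CPM in the sorts and a median of 0 and a maximum of 3.95 CPM in microglia; its adjusted p was 2e-05 without and 0.037 with the pig as a block.

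**Figure D3:**
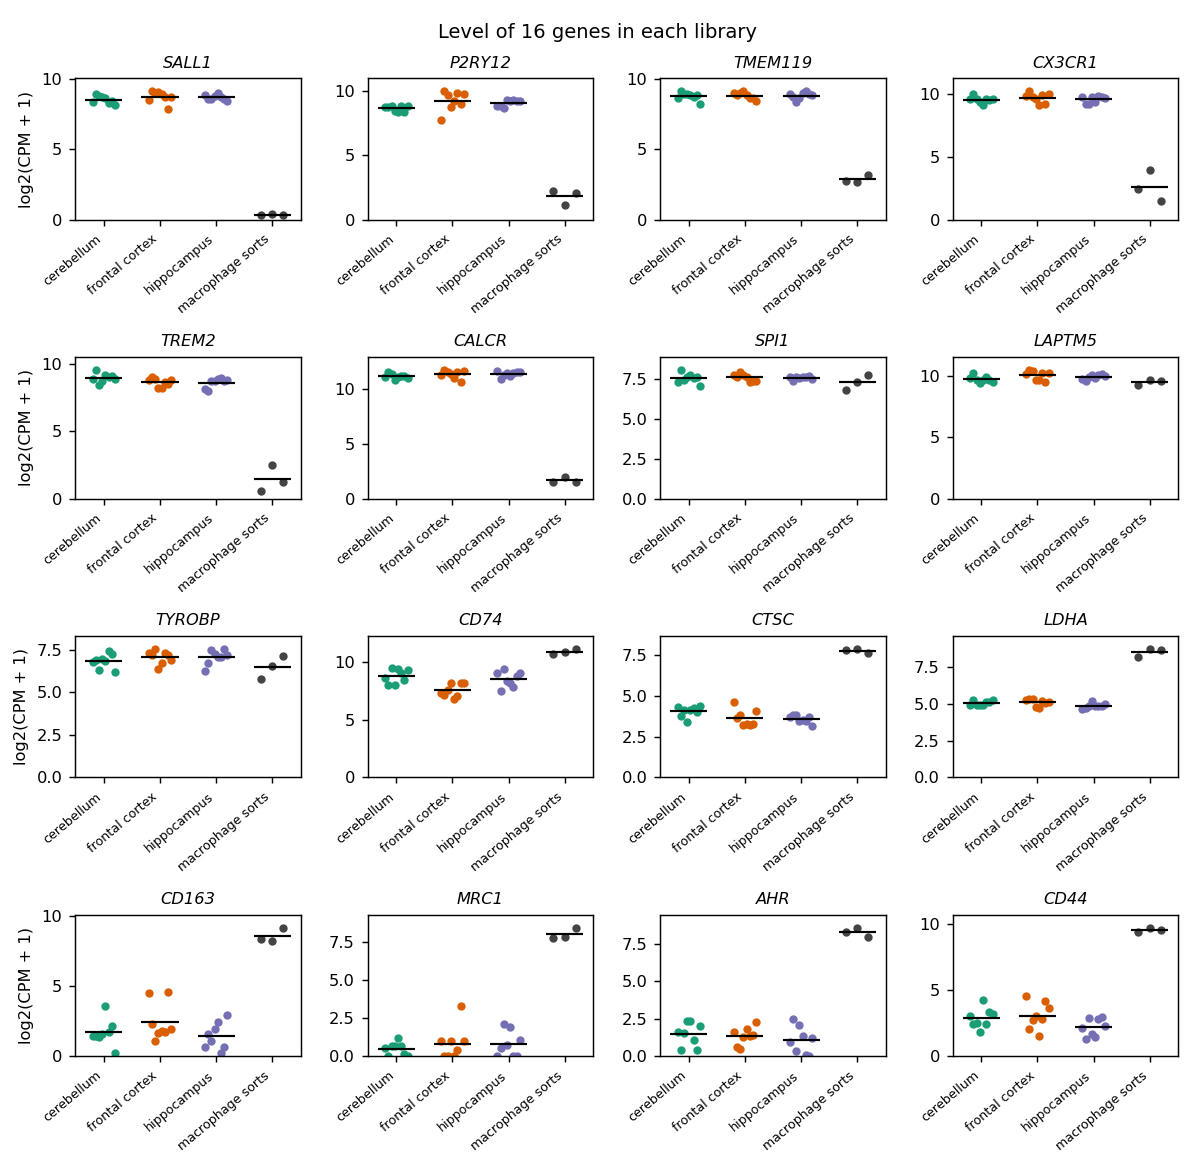
Level of 16 genes in each library as log2(CPM + 1), with 1 point per library, a line for the mean of the plotted values, and the groups cerebellum, frontal cortex and hippocampus microglia (n = 8 each) and macrophage sorts (n = 3). SALL1, P2RY12, TMEM119, CX3CR1, TREM2 and CALCR lie apart and higher in microglia, SPI1, LAPTM5 and TYROBP overlap, and CD74, CTSC, LDHA, CD163, MRC1, AHR and CD44 lie apart and lower.

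Only genes with a symbol were ranked by the size of the difference, in both directions. Of the genes called, 793 of the 1068 higher and 925 of the 1055 lower had one. Among these, the largest differences with a level of at least 100 CPM were not limited to the classical markers. The 10 genes at the top in the direction of microglia were SALL1, the homeobox gene IRX6, the kinase NRK, CALCR, the growth factor FGF1, DPP10 (an accessory subunit of potassium channels), the tetraspanin TSPAN7, the chromatin remodeller SMARCA1, the phospholipid transfer protein PLTP and the collagen chain COL1A2. CALCR had 1.86, 3.03 and 1.78 CPM in the macrophage sorts and 1618 to 3401 CPM in microglia (10.18 ± 0.35, adjusted p = 3.2e-19, edgeR). PLTP had 1.09, 2.43 and 2.62 CPM and 816 to 1909.8 CPM (9.30 ± 0.35), and TSPAN7 1.45, 1.2 and 1.09 CPM and 771 to 1485 CPM (9.69 ± 0.31). In the other 7 genes no macrophage sort was over 1 CPM, and the lowest microglia library ranged from 85.6 CPM for IRX6 to 313 CPM for NRK. Their log2 fold changes lay between 8.89 ± 0.39 for COL1A2 and 10.51 ± 0.35 for SALL1.

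In the direction of the macrophage sorts, the 10 genes at the top were FCN2 and FCN1 (ficolins, lectins that start complement), UPP1 (uridine phosphorylase), LGALS3 (galectin-3), the calgranulin S100A12, and 5 genes of lymphocytes or of blood cells in general. These 5 were MZB1 and IRF4, which plasma cells use, CD3E and ZAP70 of the T-cell receptor complex, and the kinase MAP4K1. LGALS3 had 196, 151 and 806 CPM in the sorts and at most 1.43 CPM in microglia (-10.49 ± 0.49, adjusted p = 1.7e-15, edgeR). S100A12 had 161, 169.5 and 453 CPM against at most 1.36 CPM, and FCN1 20.9, 86.5 and 194 against at most 2.67 CPM. FCN2 had 60.7, 148 and 420.0 CPM against at most 0.173 CPM, with a median of 0 in microglia, and UPP1 52.1, 155 and 114 CPM against at most 0.656 CPM. MZB1 had 331, 79 and 40.1 CPM and CD3E 217, 359.8 and 136 CPM. In microglia they were at most 1.26 and 5.58 CPM. With the pig as a block in edgeR, FCN2 and UPP1 had an adjusted p of 1 and MAP4K1 one of 0.12. ADGRE1 and the genes MCEMP1, CTSL, SLC11A1 and CD79B described below also had one of 1, and each of these 8 genes had a median of 0 CPM in microglia.

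Most tested genes of the list for purinergic signalling, by which microglia sense ATP and adenosine, were higher in microglia. The list shares P2RY12, P2RY13, GPR34 and ENTPD1 with the homeostatic list, so its count repeats part of that one. Of 11 members tested, 8 were called higher and 1 lower. The UDP receptor P2RY6, linked to phagocytosis, had 0.657, 0.235 and 0.859 CPM in the macrophage sorts and 61 to 162 CPM in microglia (7.57 ± 0.42). The adenosine receptor ADORA3 had 0.794, 0.994 and 1.55 CPM and 219.8 to 433 CPM (8.14 ± 0.30). The adenosine deaminase ADA2 and the receptor P2RY13 were higher by 3.50 ± 0.18 and 2.86 ± 0.25, both without overlap. The ATP-gated channel P2RX4 was not called (0.31 ± 0.27), with 12.1, 13 and 22.2 CPM in the sorts and 8.64 to 32.2 CPM in microglia. P2RX5 was lower in every microglia library (65.3, 58.9 and 52.1 CPM against at most 27.8 CPM) but fell just short of a 3-fold change (-1.57 ± 0.18); it was called under 13 of the 23 alternatives, limma-voom, DESeq2 and the pig as a block (-2.25) among them. The lymphocyte receptor P2RY10 was called lower, and its adjusted p with the block was 0.072. Genes through which microglia meet neurons and synapses, a list that shares CX3CR1, TREM2, complement and purinergic genes with the others, had 15 of 28 members higher and 3 lower (CD200R1, the channel TRPV2 and the transporter SLC1A2, the last with an adjusted p of 0.01 with the block). The potassium channel KCNK13, which drives microglial process surveillance, had 0, 0.261 and 0.365 CPM in the sorts and 20.2 to 35 CPM in microglia, and the glutamate transporter SLC1A3, also an astrocyte gene, 20.0, 15.2 and 25.1 and 146 to 468 CPM. The inhibitory receptor CD200R1 was lower, with 19, 26.4 and 41.8 CPM in the sorts and at most 1.42 CPM in microglia (adjusted p with the block, 0.12).

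Of 31 genes known from alveolar macrophages in the table, 16 passed the filter. Of these, 8 were called lower in microglia, 3 were called higher and 5 were not called (median log2 fold change, -1.71). The 8 include ADGRE1 and CD163, genes of the macrophage gate. MRC1 fell from 212, 229 and 344 CPM in the sorts to at most 8.79 CPM in microglia (-8.18 ± 0.79, adjusted p = 1.5e-09, edgeR). The tetraspanin CD9 had 93.4, 97.1 and 244 CPM against at most 16.4 CPM, GPNMB (a lysosomal glycoprotein) 36.6, 27.2 and 99.2 against at most 14.1 CPM, and MCEMP1 (a mast cell and macrophage membrane protein) 30.2, 33.3 and 61.2 against at most 0.612 CPM. In all 4 the highest values were those of pig 12984, and no microglia library reached the lowest sort. FABP5, a fatty acid binding protein, was called lower (-3.58 ± 1.00, adjusted p = 0.0032), and lost the call without the macrophage library of pig 12984 (adjusted p = 0.049) and with the block (adjusted p = 0.21). The sialic acid receptor SIGLEC1 and both chains of the GM-CSF receptor overlapped between cell types. CSF2RA had 38.5, 121 and 139 CPM in the sorts and 39.1 to 100.1 CPM in microglia (-0.74 ± 0.25), and CSF2RB 150.0, 255 and 155 and 66.1 to 242 CPM (-0.75 ± 0.25, adjusted p = 0.01). The complement receptor VSIG4 ran the other way, at 27.9, 37.3 and 109 CPM in the sorts and 94.4 to 250.2 CPM in microglia (1.37 ± 0.27), short of a 3-fold change. It was past it under 5 of the 23 alternatives, with the block (2.31) and without the sort of pig 12984 (2.20) among them. SIGLEC1 was called lower with the pig as a fixed block (-2.07) or as a random block in limma-voom. The 3 members called higher were osteopontin SPP1, at 2.13, 10.5 and 9.77 CPM and 12.4 to 304 CPM (2.84 ± 0.55), the gluconeogenic phosphatase FBP1 (2.31 ± 0.27) and the chitinase-like gene CHI3L2 (1.73 ± 0.31). Like the few members given below to complete a short count, these were named after their values were seen.

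Of 40 macrophage transcription factors tested, 11 were higher in microglia and 12 lower, with a median log2 fold change of -0.06. SPI1, which encodes PU.1, the lineage factor of macrophages, had 112, 162 and 211 CPM in the macrophage sorts and 133 to 266 CPM in microglia, and the ranges overlapped (0.25 ± 0.15, adjusted p = 0.16, edgeR). Its partner IRF8 was higher, at 240.4, 195 and 229 CPM against 531 to 1208 CPM (1.92 ± 0.18). SALL1 was at 0.246, 0.314 and 0.258 CPM in the sorts and 234 to 551 CPM in microglia (median, 409.9), the largest difference in the direction of microglia among the named genes at this level (10.51 ± 0.35, adjusted p = 1.2e-19). ST18, a zinc finger gene better known in neural and glial cells, was listed at 0 in all 3 sorts and at 41.5 to 127 CPM in microglia, at least 923-fold higher. GATA5 was likewise at 0 in the sorts and at 1.66 to 40.3 CPM in microglia (at least 259-fold), and lost its call in limma-voom. The lipid-sensing receptor PPARA and the dendritic cell factor BATF3 were also higher, by 3.11 ± 0.32 and 2.48 ± 0.22. PPARG had 16.1, 14.7 and 57.2 CPM in the sorts and 0 to 13.2 CPM in microglia (-2.08 ± 0.48, adjusted p = 0.00043); the call was lost without the sort of pig 12984 (-1.15, adjusted p = 0.11) and with the block (adjusted p = 0.73). The aryl hydrocarbon receptor AHR was at 307, 379 and 247 CPM in the sorts and at most 4.67 CPM in microglia (-7.44 ± 0.53), and RUNX3, which T cells and natural killer cells also use, at 256, 266 and 172 CPM and at most 15.8 CPM (-7.25 ± 0.79). KLF4 was lower too (adjusted p with the block, 0.012).

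To set the promoters of such genes beside these values, the 250 bases upstream of the RefSeq gene start (Sscrofa11.1) were read for the 7417 tested genes that could be placed. They were searched on both strands for the exact letters GAGGAAGT (PU.1), CTAAAAATA (MEF2), TGCTGAC (MAF), TGAGTCA (AP-1) and TTGCNNAA (C/EBP). For NF-kB a fixed kappaB sequence was searched and not the full consensus, so other kappaB sequences were not counted. The PU.1 letters were found in 1.92% of all windows, in 22 of 730 windows of genes higher in microglia (3.01%) and in 11 of 873 windows of genes lower in microglia (1.26%). The AP-1 letters were found in 2.31%, 2.33% and 3.55% of these 3 sets and those of MAF, a factor of many tissue macrophages, in 2.49%, 2.05% and 3.09%. Matches of C/EBP were the most common, in 7.66%, 8.08% and 9.97%, and those of MEF2 (0.297% of all windows) and NF-kB (0.135%) were rare. A match is a description of these letters and not a binding site, and the windows hold only the nearest stretch of each promoter. Windows of 2 genes are printed 5′ to 3′ on the strand of the gene: C1QC as a complement gene higher in microglia with a PU.1 match on the opposite strand, and CSF1, lower in microglia, with overlapping MAF and AP-1 matches and an NF-kB match on the opposite strand; capitals mark the matches. They lie at chr6:80592341-80592590 on the plus strand and at chr4:110198233-110198482 on the minus strand.
C1QC: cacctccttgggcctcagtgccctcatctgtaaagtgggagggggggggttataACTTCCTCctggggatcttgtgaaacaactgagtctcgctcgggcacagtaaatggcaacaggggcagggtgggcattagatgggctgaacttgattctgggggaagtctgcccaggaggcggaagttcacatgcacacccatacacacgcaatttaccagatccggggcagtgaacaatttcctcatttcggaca
CSF1: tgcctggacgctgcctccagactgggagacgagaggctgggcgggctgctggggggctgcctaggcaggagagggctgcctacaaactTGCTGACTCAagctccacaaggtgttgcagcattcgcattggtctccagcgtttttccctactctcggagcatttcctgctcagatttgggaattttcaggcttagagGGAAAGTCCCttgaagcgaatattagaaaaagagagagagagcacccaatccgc
The PU.1 match of C1QC ended 188 bases before the gene start.

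Complement genes differed in both directions. Of 18 tested, 8 were higher in microglia and 5 lower. The 3 chains of C1q, which tag synapses and debris, were all higher. C1QA had 71.3, 68 and 151 CPM in the macrophage sorts and 361 to 921 CPM in microglia (2.61 ± 0.26), C1QB 165, 130.4 and 275 and 1112 to 2531 CPM (3.14 ± 0.26), and C1QC 149, 163 and 419 and 563 to 1493 CPM (2.00 ± 0.27). C3, the central component, had 431, 509 and 684 CPM in the sorts and 1538 to 6417 CPM in microglia (2.66 ± 0.20, adjusted p = 2.9e-12, edgeR), and the C3a receptor C3AR1 3.12, 4.89 and 4.08 and 98.3 to 211 CPM (5.11 ± 0.25). ITGB2, the chain that pairs with ITGAM in complement receptor 3, overlapped, at 443, 564 and 568 CPM and 468 to 1064 CPM (0.41 ± 0.15). Lower in microglia were both ficolins and CD55, which shields cells from complement, with 46.4, 46.7 and 54.5 CPM in the sorts and at most 2.56 CPM in microglia (-7.49 ± 0.65). CD59, which blocks the last step of complement, and properdin CFP, which stabilises its alternative pathway, were the other 2, with log2 fold changes of -5.14 ± 1.06 (adjusted p with the block, 0.11) and -2.20 ± 0.19.

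Receptors for microbes and for debris were split as well. Of 19 pattern recognition genes tested, 6 were higher and 3 lower, and of 21 scavenger and phagocytosis genes 10 and 4. TLR3, TLR1, TLR6 and TLR9, which sense double-stranded RNA, lipopeptides (TLR1 and TLR6) and bacterial DNA, were higher by 4.71 ± 0.39, 2.93 ± 0.23, 2.93 ± 0.29 and 3.73 ± 0.27 on the log2 scale. TLR9, for instance, had 16.7, 19.2 and 22.6 CPM in the macrophage sorts and 180.3 to 514 CPM in microglia. TLR4, the receptor for lipopolysaccharide, overlapped, at 68.1, 99.2 and 164 CPM and 92 to 187 CPM (0.21 ± 0.17, adjusted p = 0.29, edgeR), and without the sort of pig 12821 its estimate took the other sign (-0.04). The inflammasome sensor NLRP3 had 39.3, 65.7 and 104 CPM in the sorts and 447 to 841 CPM in microglia (3.21 ± 0.22), all libraries apart. Lower were NLRC3, a regulator also found in T cells (166, 154 and 143 CPM against at most 3.03 CPM), and the glucan receptor CLEC7A (14.6, 22.5 and 48.3 against at most 8.93 CPM; adjusted p with the block, 0.085), followed by the RNA sensor IFIH1 (-1.60 ± 0.25), which lay at the 3-fold threshold and fell under it without the sort of pig 12821 (-1.57) or the frontal cortex library of pig 12599 (-1.56). Among phagocytic receptors, ITGAV, the chain that binds debris bridges and activates TGF-beta, was at 19.4, 19.5 and 27.9 CPM in the sorts and 193 to 499 CPM in microglia (3.68 ± 0.21). HAVCR1 (TIM-1), a receptor for phosphatidylserine, was at 0.137, 0.575 and 0.558 and 12 to 129.9 CPM, a call that limma-voom did not make. COLEC12, a scavenger collectin, was lower (50.4, 54.4 and 114 CPM against at most 8.55 CPM). FCER1G, the shared chain of Fc receptors, was higher by 1.02 ± 0.25, under 3-fold, and was called with the block (1.67).

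Genes of antigen presentation by MHC class II were more often lower than higher in microglia. Of 16 members tested, 7 were called lower and 1, the costimulatory ligand CD80 (1.89 ± 0.22), higher. CD74, the invariant chain, was at 1585, 1879.9 and 2206 CPM in the macrophage sorts and 111 to 709.6 CPM in microglia (median, 284), with a log2 fold change of -2.52 ± 0.27 (adjusted p = 6.1e-09, edgeR). The class II genes SLA-DQA1 and SLA-DQB1 of the swine leukocyte antigen region were at 221, 268 and 489 and 193, 246 and 566 CPM in the sorts and at most 41.3 and 45.7 CPM in microglia (-4.41 ± 0.33 and -4.55 ± 0.41). Reads of such near-identical SLA genes may be divided among them by the counting, which was not tested. SLA-DOA, which B cells also use, was lower (adjusted p with the block, 0.015), and SLA-DMB, of the peptide exchange factor, was higher in every microglia library but by less than 3-fold (1.08 ± 0.17). B cells carry class II as well, and the B-cell receptor chain CD79B was at 92.1, 53.5 and 38.4 CPM in the sorts and at 0 in all microglia libraries. Their part in these differences was not tested. The dendritic cell sum (9 markers) was 605, 252 and 274 CPM in the sorts, within or above the 242 to 362 CPM of microglia.

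Of 41 lysosomal genes tested, 3 were called higher, namely NPC2, which carries cholesterol out of the lysosome (2.82 ± 0.26), the channel TPCN1 (2.76 ± 0.17) and the mannosidase MAN2B1 (1.79 ± 0.14), and 9 lower, and the median log2 fold change was 0.19. Among the genes called lower, CTSC, which activates granule proteases, was at 227, 237 and 203 CPM in the macrophage sorts and 7.96 to 24.1 CPM in microglia (-4.09 ± 0.17, adjusted p = 1.5e-17, edgeR). CTSH was at 105, 105 and 181 and 2.81 to 13.6 CPM (-4.36 ± 0.25), CTSB at 156, 189 and 158 and 3.01 to 92.3 CPM (-3.59 ± 0.30), and LGMN (legumain) at 210.0, 218 and 294 and 5.71 to 109.9 CPM (-2.91 ± 0.30). None of these ranges overlapped, and CTSL was at 13.2, 11.2 and 77.5 CPM in the sorts and at most 0.208 CPM in microglia. The aspartic protease CTSD was not called and overlapped, at 816, 721 and 845 CPM and 778 to 3208 CPM (0.85 ± 0.26). PSAP, the precursor of the saposins, was higher in every microglia library, at 439, 512 and 769 CPM and 811 to 1782 CPM, by less than 3-fold (1.06 ± 0.18).

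Growth factors and their receptors were more often higher than lower in microglia. Of 18 tested members of the colony stimulating factor and growth factor list, 9 were higher and 3 lower. FGF1 was at 0.137, 0.209 and 0.322 CPM in the macrophage sorts and 128 to 421 CPM in microglia (10.18 ± 0.46, adjusted p = 5.9e-17, edgeR), and its receptor FGFR1 at 0.547, 0.941 and 1.7 and 64.8 to 200.03 CPM (6.86 ± 0.36). PDGFB was higher by 3.72 ± 0.30. Opposite to its receptor, CSF1 was lower in microglia, at 104, 124 and 82 CPM in the sorts and 2.85 to 76.4 CPM in microglia (-2.93 ± 0.33), and so was the granulocyte receptor CSF3R, at 99.1, 248 and 187 CPM and 1.16 to 38.2 CPM, a gene that neutrophils also express. In the TGF-beta pathway, 3 of 17 members were called higher and 1 lower. The ligand TGFB1 overlapped, at 337, 385 and 279.7 CPM and 211 to 525.80 CPM, with a log2 fold change of -0.02 ± 0.17 whose sign changed with the processing. Its receptors TGFBR1 and TGFBR2 were higher by 0.88 ± 0.19 and 1.41 ± 0.14, under 3-fold, with TGFBR2 at 170.4, 163 and 154 CPM in the sorts and 341 to 628 CPM in microglia. The receptor ACVR1, the matrix protein TGFBI and ITGAV were called higher (2.87 ± 0.27, 2.54 ± 0.33 and, as above, 3.68 ± 0.21), and THBS1, a matrix protein that activates TGF-beta and is also a monocyte gene, was at 104, 84.6 and 120.2 CPM in the sorts and at most 7.57 CPM in microglia.

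Cytokine, chemokine and adhesion genes were lower in microglia more often than higher. Among cytokines and their receptors, 13 of 31 were lower and 4 higher; among chemokines and their receptors, 13 of 21 and 3; and among integrins and adhesion genes, 13 of 32 and 7. Several of the genes with the largest differences in these lists are also lymphocyte genes. IL2RB, a receptor chain of T and natural killer cells, was at 525, 744 and 422 CPM in the macrophage sorts and at most 41.2 CPM in microglia. ITGA4, the integrin chain by which leukocytes leave vessels, was at 518, 481 and 488 CPM and at most 16.1 CPM. CD44, the hyaluronan receptor, was at 666, 839 and 755 CPM in the sorts and 1.43 to 22.5 CPM in microglia (-6.85 ± 0.39, adjusted p = 5.5e-14, edgeR). The 4 cytokine genes called higher were the receptor chains TNFRSF21, IL13RA1 and IFNGR1 (2.80 ± 0.23, 2.76 ± 0.28 and 2.00 ± 0.20) and the inflammasome product IL18 (1.81 ± 0.29). The chemokine CCL24 was lower (70.6, 42.8 and 57 CPM against at most 2.73 CPM). CXCL10, an interferon-induced chemokine, was higher, at 4.24, 4.65 and 2.66 CPM in the sorts and 24 to 171 CPM in microglia (4.10 ± 0.47), as were CCL8 (4.74 ± 0.40) and CX3CR1. The IL-10 receptor chain IL10RA was higher in every microglia library but under 3-fold (1.00 ± 0.15), and ITGB1, which pairs with ITGA4, was lower in every one and just under it (-1.53 ± 0.14; with the block -1.93, and called under 8 of the 23 alternatives, DESeq2 among them). Of 34 interferon response genes, 5 were higher (14.7%) and 4 lower (11.8%), shares near those of all genes tested. Beside IRF8 and CXCL10, IFIT5, OAS2 and IFIT2 were higher, by 3.04 ± 0.45, 2.14 ± 0.52 and 1.99 ± 0.32, the last of these by less than 3-fold with the block (1.56). SAMHD1, ISG20, GBP1 and RSAD2 were lower (-5.01 ± 0.43, -4.77 ± 0.86, -2.68 ± 0.21 and -1.70 ± 0.37; ISG20 had an adjusted p of 0.01 with the block). The call of OAS2 was lost without the sort of pig 12821 (adjusted p = 0.012), as were those of IL18 and CHI3L2, whose changes fell just under 3-fold (1.52 and 1.501).

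**Figure D4:**
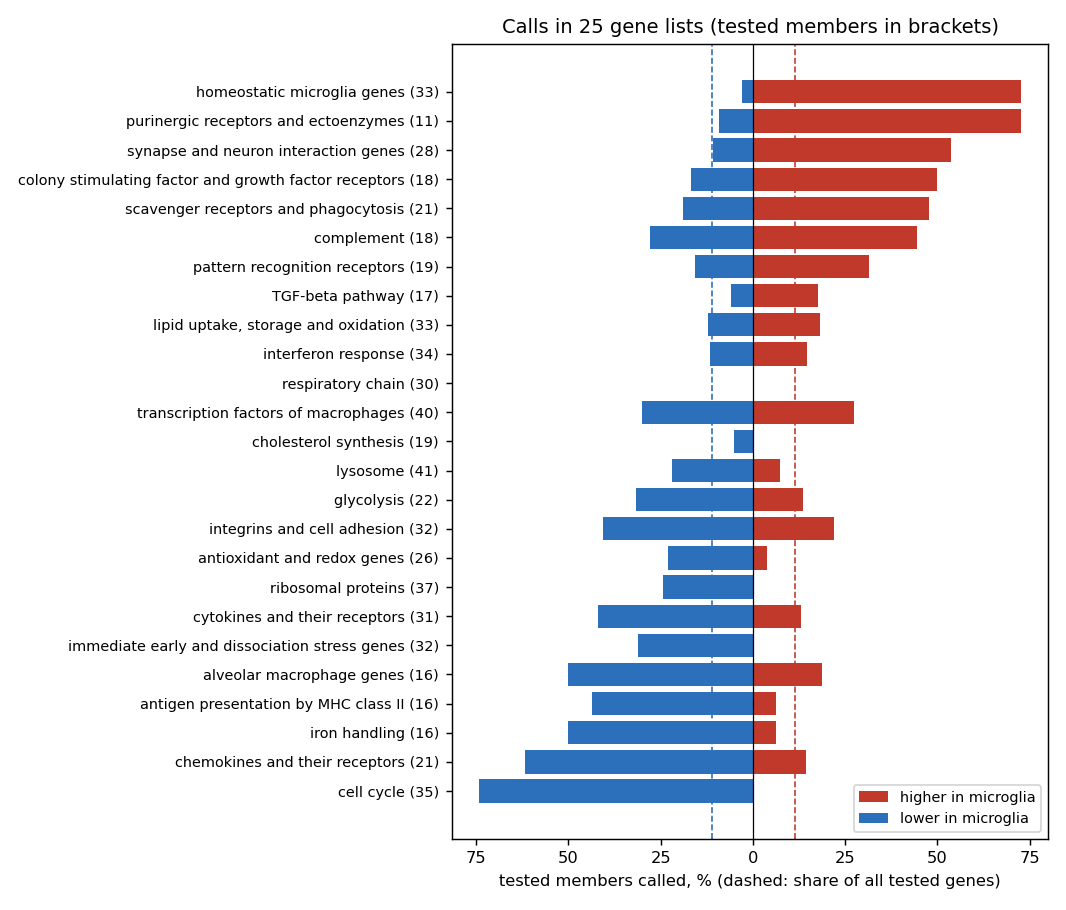
Share of tested members called higher (right, red) and lower (left, blue) in microglia, in percent, for 25 gene lists, with the number of tested members in brackets and dashed lines at the shares of all tested genes, 11.4% and 11.2%. Homeostatic and purinergic genes have the highest shares of members called higher, and cell cycle genes and chemokines the highest shares called lower.

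Metabolic genes were called in both directions. In glycolysis, 3 of 22 genes were higher in microglia (13.6%), near the 11.4% of all genes tested. Lower were 7 (31.8%), beside 11.2% of all genes tested. LDHA, which makes lactate, was at 282, 421 and 408 CPM in the macrophage sorts and 24 to 39.5 CPM in microglia (-3.56 ± 0.10, adjusted p = 5.7e-21, edgeR). The transporters were divided. The glucose transporter SLC2A3 was at 195, 165 and 152 and 6.59 to 36.4 CPM and the lactate carrier SLC16A1 at 79, 46.9 and 38.1 and 0.16 to 8.04 CPM, both lower, whereas the fructose transporter SLC2A5 was higher, at 14.5, 27.7 and 26.1 and 189 to 508 CPM (3.89 ± 0.23). The hexokinases moved apart, HK2 higher (34.6, 43.9 and 74.3 CPM in the sorts, 183 to 609 CPM in microglia) and HK3 lower (156, 251 and 184 and 10.6 to 43.7 CPM), and FBP1, which runs against glycolysis, was the third gene called higher. GAPDH was lower in every microglia library (-1.21 ± 0.14) and PGK1 higher (0.56 ± 0.12), both under 3-fold. Of 30 respiratory chain genes none was called by edgeR or DESeq2 and 1 by limma-voom, although 16 were lower at an adjusted p under 0.01 regardless of size (26.7% of all genes tested) and 0 higher (25.6%); at an unadjusted p under 0.05 these were 20 and 0. ATP5F1A and CS, of ATP synthase and the citrate cycle, were lower (-0.73 ± 0.12 and -0.83 ± 0.10).

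In lipid handling, 6 of 33 genes were higher (18.2%) and 4 lower (12.1%), the latter share near the 11.2% of all genes tested. The 4 were PPARG, FABP5, ACSL4 and the fatty acyl reductase FAR2 (adjusted p with the block, 0.011). The cholesterol exporters ABCA1 and ABCG1 were higher, ABCA1 at 16.4, 15.6 and 25.6 CPM in the macrophage sorts and 321 to 746 CPM in microglia (4.78 ± 0.27, adjusted p = 1e-14, edgeR) and ABCG1 by 3.36 ± 0.29. ACSL4, which loads polyunsaturated fatty acids onto coenzyme A, was at 124, 143 and 137 CPM in the sorts and at most 14.7 CPM in microglia (-6.65 ± 0.72). The lysosomal lipase LIPA overlapped (0.19 ± 0.17). Iron genes were lower in 8 of 16 cases and higher in 1. FTH1 was at 1148, 1635 and 2696 CPM in the sorts and 337 to 634 CPM in microglia (-1.93 ± 0.15), a difference that stayed past the p threshold with the block (adjusted p = 2e-05) but fell under 3-fold (-1.32 on the log2 scale), as it did without the sort of pig 12984 (-1.54). The iron exporter SLC40A1 (ferroportin) was higher, at 2.03, 5.33 and 7.17 and 24.3 to 68.9 CPM (3.06 ± 0.30), and SLC11A1 (NRAMP1), a phagosomal metal carrier, was at 26.5, 27.6 and 61.4 CPM in the sorts and at 0 in all microglia libraries, at least 338-fold lower. Of 26 antioxidant genes 6 were lower, among them thioredoxin TXN (-3.91 ± 0.40; adjusted p with the block, 0.012), and 1 was higher, the selenium carrier SELENOP (25.7, 22.6 and 33.4 CPM in the sorts, 104 to 259 CPM in microglia).

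Cell cycle genes were lower in microglia without exception among the 35 tested, of which 26 were called (median log2 fold change, -2.90) and 32 had every microglia library below every sort (19.9% of all genes tested). TOP2A, which untangles chromosomes, was at 155, 181 and 133 CPM in the macrophage sorts and 0 to 24.8 CPM in microglia (-4.47 ± 0.63, adjusted p = 9.9e-07, edgeR). TYMS, for thymidylate synthesis, was at 45.6, 61.6 and 37.2 and 0.498 to 3.62 CPM (-4.83 ± 0.35). MKI67, the gene of Ki-67, and the kinase CDK1 were lower by less than 3-fold, with 424, 454 and 329 and 89.8 to 344 CPM for MKI67 and an overlap between the groups. Members such as TYMS, which passed the filter only through the sorts, could hardly be called otherwise. Lymphocytes also use cell cycle genes, and their part in the differences was not tested. Genes of ribosomal proteins were lower as well. All 37 tested were lower at an adjusted p under 0.01 (26.7% of all genes tested) with no overlap between the groups, 9 of them past 3-fold, and their log2 fold changes lay in a narrow band from -1.96 to -0.75. RPL8 was at 568, 708 and 419 CPM in the sorts and 103 to 184 CPM in microglia, and RPL5 at 542, 606 and 483 and 191 to 371 CPM. RPS6 was called (-1.66 ± 0.13), close to the threshold, and not without the sort of pig 12829 (-1.57).

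Immediate early and stress genes, which tissue dissociation can raise, were also measured. Of 32 tested, edgeR called none higher and 10 lower. At an adjusted p under 0.01 regardless of size, 2 were higher and 18 lower (25.6% and 26.7% of all genes tested). At an unadjusted p under 0.05, 2 were higher and 20 lower. None was called higher by limma-voom or DESeq2, which called 10 and 11 lower. An effect of dissociation was not tested. FOS overlapped, at 36.8, 62.7 and 52.1 CPM in the macrophage sorts and 1.5 to 124 CPM in microglia (-0.88 ± 0.53, adjusted p = 0.15, edgeR), and JUN likewise, at 246, 329 and 325 and 65.7 to 511 CPM (-0.69 ± 0.29). FOSL2 was lower, at 126, 162 and 132 and 2.28 to 15.1 CPM (-4.38 ± 0.25).

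The distance from the macrophage sorts varied between brain regions for a minority of genes. An F test over the 3 regions in edgeR, with group as the only term although 7 pigs gave more than 1 region, had an adjusted p under 0.01 for 156 of the genes tested, 87 of them among the 2123 called genes. With the pig as a block it did so for 111 genes, 73 of them among the 156. Of the 11 named genes that passed, 6 did so with the block and 5 did not, namely CSF1 (adjusted p = 0.025), JUN (0.023), COL1A2 (0.038), CD3D (0.14) and ITGA4 (0.15). C3 was at 4856 ± 722 CPM in the cerebellum, 3423 ± 365 CPM in the hippocampus and 2388 ± 460.3 CPM in the frontal cortex (mean ± SD, n = 8 each; adjusted p between regions = 5.7e-05, edgeR). Its log2 fold change against the sorts was 3.17, 2.66 and 2.14 in that order, called in all 3. SLC2A5 and FGFR1 had the same order of regions, with 431 ± 74.4, 381 ± 56.3 and 237 ± 45 CPM for SLC2A5 and 169 ± 22, 128 ± 29.2 and 90.8 ± 26.1 CPM for FGFR1. SELENOP and COL1A2 were lowest in the cerebellum, SELENOP at 131 ± 19.1 CPM against 216 ± 27.8 CPM in the frontal cortex, and COL1A2 at 285 ± 100.0 CPM against 522 ± 74.7 CPM in the hippocampus. Cerebellar microglia lay nearer to the sorts for CSF1 and CTSB. CSF1 was at 34.1 ± 19.3 CPM in the cerebellum, 9.28 ± 6.23 in the frontal cortex and 7.89 ± 3.62 in the hippocampus, so that it was -1.60, -3.48 and -3.71 on the log2 scale against the sorts. CTSB was at 37.3 ± 23.4, 9.06 ± 5.22 and 8.03 ± 3.31 CPM. SPP1 was at 113 ± 79.8, 36.3 ± 15.7 and 37.2 ± 13.8 CPM. JUN was at 305 ± 104 CPM in the cerebellum, within the range of the sorts, and at 118 ± 63.3 CPM in the frontal cortex. ITGA4 and the T-cell receptor chain CD3D were low in all regions, with means of 4.04, 6.89 and 0.0789 CPM for ITGA4, and lowest in the hippocampus, where no library was over 0.347 and 0.128 CPM.

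**Figure D5:**
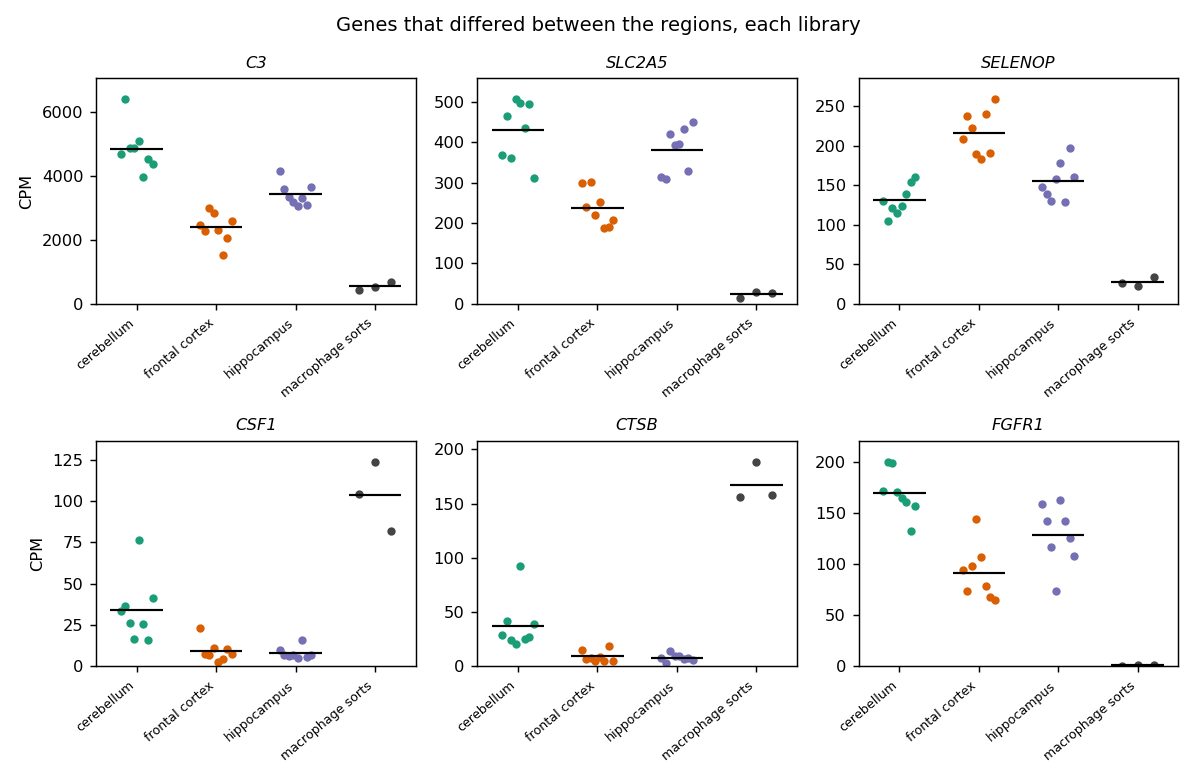
CPM of 6 genes in each library, with 1 point per library, a line for the group mean, and the groups cerebellum, frontal cortex and hippocampus microglia (n = 8 each) and macrophage sorts (n = 3). C3, SLC2A5 and FGFR1 are highest in the cerebellum among microglia, SELENOP in the frontal cortex, and cerebellar CSF1 and CTSB lie between the other regions and the macrophage sorts.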

How the data were processed

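Total RNA of sorted cells was sequenced as stranded, 50-base paired-end reads. Reads were aligned with HISAT2 to Sscrofa11.1, and the authors deposited raw counts per gene made with StringTie; whether counting used strand is not given in the sources used here, so overlapping and antisense genes are uncertain, and reads of near-identical genes may be divided between them. All 31 columns matched a label. The 27 libraries had 18438494 to 43477403 counts. Genes with over 10 CPM in every library of at least 1 of the 4 groups were tested with the edgeR 4.0.16 quasi-likelihood test (robust; R 4.3.3, TMM factors, group as the only term), with Benjamini-Hochberg adjustment over all 9379 genes. The study used limma-voom, run here as an alternative (limma 3.58.1) with DESeq2 1.42.0, other normalizations and filters, each sort or region left out, and pig as a block. On simulated data with 200 of 9379 genes changed 8-fold, edgeR called 185 of them and 0 others. The simulated libraries were independent and all other genes unchanged, so this does not cover shared pigs, mixed sorts or the many differences of these data. Levels are TMM-scaled CPM.

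The numbers that open the titles were taken to mark the animal, which no source used here states. Deviations from the group means correlated at 0.0787 on average between a sort and microglia of the same pig (3 pairs, 0.0218 to 0.127). Between different pigs this was -0.0034 (69 pairs, -0.16 to 0.173), a range that held all 3 values. For 2 regions the averages were 0.214 in 1 pig (13 pairs, -0.075 to 0.397) and -0.0149 in different pigs (179 pairs, -0.314 to 0.297). These 2 ranges overlapped. No 2 libraries of a group were alike within sampling noise (lowest chi-square per degree of freedom, 47.5). Gene IDs were paired with symbols by a reference table and the study's supplementary tables. In all, 15183 IDs had a symbol, 225 of them only from the supplementary tables. The 56 IDs on which these sources differed were left without, as were IDs that shared a symbol with another. The members of the comparison, the gene lists and the rule for named genes were chosen with earlier results of these data known. The rule took the sort genes and the 10 most abundant genes with a symbol in each cell type. It took the 10 largest differences in each direction among genes with a symbol, at 100 CPM or more without overlap. From each list it took the first 3 members and up to 6 called members with the largest change. Up to 3 uncalled members with the highest level were also taken from each list. From these the text gives those that could be described, and members that complete a short count were added after their values were seen. Some items are not reported here. Promoter windows came from the reference genome and RefSeq gene starts of the same build.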

Additional observations from a re-analysis of the deposited data

Results flagged for a closer look

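Among the genes named, 11 differed between microglia of the 3 regions in their distance from the macrophage sorts, by the F test over regions in edgeR with group as the only term. The adjusted p was 5.7e-05 for C3, 6.2e-05 for CTSB, 0.00029 for both CSF1 and SELENOP, 0.00062 for SLC2A5, 0.00097 for ITGA4, 0.0014 for CD3D, 0.0039 for JUN, 0.0045 for SPP1, 0.0074 for FGFR1 and 0.0084 for COL1A2.

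Within a region, 11 of the values checked in 69 sets of 8 libraries lay far from the other 7. Chance alone gives about 5% of sets if values are normally distributed. The values were not put on a log scale, and the hippocampal ITGA4 values were near the floor, so this share is only a rough guide. In cerebellar microglia, the library of pig 12821 had 76.4 CPM of CSF1 (median of the region, 29.9), 92.3 CPM of CTSB (27.7), 304 CPM of SPP1 (83.0) and a natural killer cell marker sum of 249 CPM (159), each the highest of the 8. The cerebellar library of pig 12599 had 6417 CPM of C3 (4775) and a monocyte marker sum of 295 CPM (235). Of the frontal cortex libraries, that of pig 12599 had 23.0 CPM of CSF1 (7.61) and that of pig 12902 had 262 CPM of JUN (99.3). Of the hippocampal libraries, that of pig 12829 had 16.1 CPM of CSF1 (6.66), that of pig 12821 had 0.347 CPM of ITGA4 (0.0312) and that of pig 12781 had a neuron marker sum of 252 CPM (118).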

How the results depend on the processing

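The counts of 1068 genes higher and 1055 lower in microglia stayed within 1.5 times under limma-voom (980 and 1115), DESeq2 (1033 and 1049), RLE or no factors, the pig as a random block and the omission of any region. Without 1 macrophage sort they were 1015 to 1117 and 991 to 1051, and 902 to 975 and 704 to 760 in each region. With filterByExpr 1978 genes were higher and 2196 lower of 21761 tested (1523 and 1226 in each region), and with no filter 1898 and 2797 of 27874 (1453 and 1301), as more genes were tested; the median log2 fold change of the 9379 genes was then -0.17 and -0.20. Tested against the 3-fold threshold itself, 725 were higher and 659 lower (628 and 375 in each region). The pig as a block in edgeR gave 1062 and 742, and 943 and 468 in each region; the cause was not tested. It ended the call of 24 of the 140 called genes named, which are given beside their results, and every alternative kept the calls of 82. With only the 2 pigs that gave both cell types, 943 genes were higher and 754 lower, and 36 named genes lost their call. Of the 156 genes that differed between regions, 73 were among the 111 found with the pig as a block and 130 among the 352 found with it as a random block in limma-voom; without the frontal cortex library of pig 12599 there were 180, and FGFR1 no longer passed, at an adjusted p of 0.01 (edgeR). These region tests, and omitting the microglia of either of these pigs, or that library, were added after seeing the data. Signs changed for 2 uncalled genes. The log2 fold change of TLR4 without 1 sort ranged from -0.0419 (pig 12821 left out) to 0.612. The log2 fold change of TGFB1 without 1 sort ranged from -0.129 to 0.0985 (pig 12829 left out), and was 0.0390 with no factors, 0.0424 with the pig as a block, 0.0108 with it as a random block, 0.0559 without the frontal cortex, 0.0146 without the hippocampus and 0.0514 in the 2 pigs. At 3 sorts, of which pig 12984 gave no microglia, and with lung and blood cell markers in all of them, macrophages and other cells of the sorts cannot be told apart for genes that both use. Counts near the floor of 0.0644 to 0.154 CPM carry little information.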

Other observations

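Markers of brain border macrophages, the phagocytes of the meninges and vessels that could enter the microglial gate, were also compared. Of 8 tested, 4 were lower in microglia than in the macrophage sorts and 1, MS4A7, was higher. The sum of the 11 markers in the table was 769, 803 and 1339 CPM in the sorts and 229 to 687 CPM in microglia, where CD163 and MRC1 were at most 23.5 and 8.79 CPM. MS4A7 was at 3.5, 4.55 and 2.43 CPM in the sorts and 88.3 to 253 CPM in microglia (5.42 ± 0.26), with no overlap. Of the genes of cholesterol synthesis, 19 were tested and 1 was called lower and none higher in edgeR. At an adjusted p under 0.01 regardless of size, 4 were higher and 5 lower (25.6% and 26.7% of all genes tested). At an unadjusted p under 0.05, 4 were higher and 7 lower. Calls by limma-voom and DESeq2 were also 1 lower and none higher.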
